A study of Homo sapiens with 6 samples.

Results

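The E proteins and their ID inhibitors were examined after knockdown of PRKCN, a kinase of the protein kinase D family listed under its current symbol PRKD3, in the multiple myeloma line MM.1S, which is of human origin. The members were taken by symbol from the deposited gene table: the E protein genes TCF3, TCF4 and TCF12 and the inhibitor genes ID1, ID2 and ID3, 6 of the 21850 genes listed. All 6 symbols were present, and ID4, the remaining ID family gene, was not analysed here. The shNT group held 3 libraries of MM.1S cells labelled WT and infected with a scramble hairpin. The shPRKCN group held 3 libraries of MM.1S cells labelled PRKCN knockdown and infected with a PRKCN hairpin, and both groups were profiled at day 3. Hairpins were constitutive and carried by a lentiviral vector with a GFP reporter. The labels name neither the PRKCN hairpin used nor separate cultures, so p-values measure only the spread between these libraries, which may be technical. No further PRKCN hairpin is labelled, so an effect of the hairpin itself cannot be told apart from one of PRKCN loss.

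E proteins are basic helix-loop-helix transcription factors that bind DNA motifs called E-boxes, as dimers with each other or with tissue-restricted partners. ID proteins carry the helix-loop-helix but lack the basic region that contacts DNA, so an E protein held by an ID protein does not bind its sites. In the B lineage TCF3 and TCF12 drive lymphocyte commitment and antibody gene activity, TCF4 remains important in antibody-producing cells and plasmacytoid dendritic cells, and ID genes are rapid targets of BMP and antigen receptor signals.

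The knockdown was seen in the target itself: PRKD3 had 1262 ± 41.7 CPM (SD, n = 3) in shNT and 517 ± 23.4 CPM (SD, n = 3) in shPRKCN libraries. CPM are counts scaled by library size and TMM factors. Total counts ran from 35625564 to 37730003 per library. Myeloma cells are malignant plasma cells, and all 7 listed plasma cell genes were expressed, with a summed FPKM (reads scaled by gene length and library size) of 1148 to 1173 in shNT libraries. The sum was 673 to 688 in shPRKCN libraries, where IRF4, XBP1, TNFRSF17 and SLAMF7 were called lower. PRDM1 (−0.54 on the log2 scale) was lower under the fold limit, SDC1 (0.18, adjusted p = 2.1e-06 from edgeR) was higher under it, and CD38 had a log2 fold change of −0.012 (adjusted p = 0.87 from edgeR). B cell and myeloid markers were low: the 3 listed B cell markers summed to at most 0.066 FPKM and the 3 myeloid markers to at most 0.184 FPKM in any library. The T and NK cell list summed to 7.97 to 8.70 FPKM in shNT and 20.5 to 22.9 FPKM in shPRKCN libraries. Of that list CD3E (1.40 on the log2 scale) was the called gene. CD2 had a log2 fold change of −0.39 (adjusted p = 0.50 from edgeR), and CD3D, CD8A and NCR1 were too low to test. HBB, the erythroid marker listed, went from 3.45 to 6.12 FPKM to 1.49 to 1.75 FPKM, and the stroma and endothelium list, through PECAM1, from 2.69 to 3.16 FPKM to 1.24 to 1.26 FPKM. The part of these marker shifts in the results on E protein and ID genes was not tested. All libraries came from the single line MM.1S, and in bulk RNA a change in every cell cannot be told apart from a change in some cells.

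After PRKCN knockdown ID1 and ID3 rose, ID2, TCF12 and TCF3 were lower by less than the fold limit, and TCF4 did not pass the test. ID3 reached 2.40-fold and ID1 1.70-fold of the shNT level, while ID2 kept 70.8%, TCF12 77.7%, TCF3 90.7% and TCF4 95.2% of it. Genes were called by the edgeR quasi-likelihood fit where the p adjusted by Benjamini-Hochberg was under 0.05 and the log2 fold change passed 0.58 in either direction. By these limits 2 of the 6 members were called higher, beside 6.15% of the 13971 genes tested, and 0 of 6 lower, beside 10.6%. On the adjusted p alone 2 members were higher, beside 26.5% of genes, and 3 were lower, beside 27.8%. The shPRKCN libraries all lay above the shNT libraries for 2 members, beside 29.0% of genes, and all below for 3 members, beside 29.8%. The ID genes were split, with ID1 and ID3 higher and ID2 lower.

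**Figure D1:**
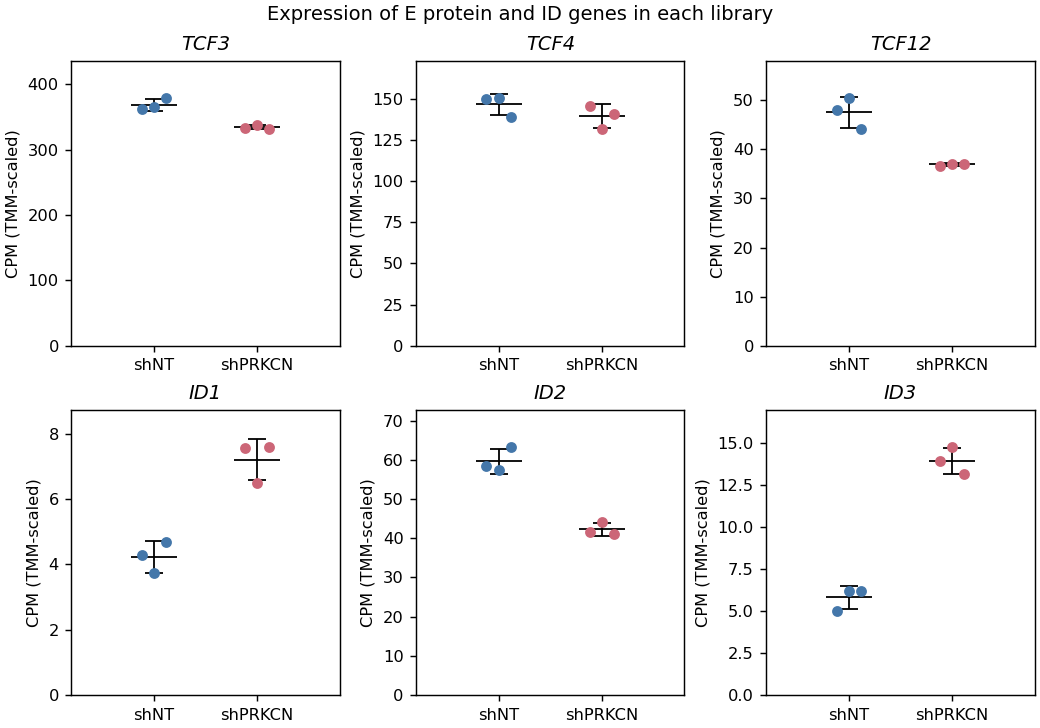
Expression of the 6 genes in CPM (vertical axes, each from 0) in the 3 shNT and 3 shPRKCN libraries, 1 point per library, with the mean and SD as bars. ID1 and ID3 points lie apart and higher in shPRKCN, ID2, TCF12 and TCF3 points lie apart and lower, and TCF4 points overlap.

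The 3 ID genes were set beside their proximal promoters because they moved in opposite directions. The 250 bases upstream of each annotated start are given from RefSeq (GRCh38.p14), 5′ to 3′ along the gene, with E-boxes (CANNTG), CCAAT boxes (CCAAT or its reverse ATTGG) and TATA motifs (TATAAA or its reverse) in capitals. ID1 is read from the plus strand at chr20:31605039-31605288, ID2 from the plus strand at chr2:8681806-8682055 and ID3 from the minus strand at chr1:23559502-23559751.
ID1: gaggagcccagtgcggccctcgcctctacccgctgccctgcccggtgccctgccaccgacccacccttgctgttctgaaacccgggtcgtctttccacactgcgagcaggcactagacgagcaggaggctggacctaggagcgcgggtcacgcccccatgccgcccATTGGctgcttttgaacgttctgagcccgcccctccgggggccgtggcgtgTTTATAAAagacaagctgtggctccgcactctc
ID2: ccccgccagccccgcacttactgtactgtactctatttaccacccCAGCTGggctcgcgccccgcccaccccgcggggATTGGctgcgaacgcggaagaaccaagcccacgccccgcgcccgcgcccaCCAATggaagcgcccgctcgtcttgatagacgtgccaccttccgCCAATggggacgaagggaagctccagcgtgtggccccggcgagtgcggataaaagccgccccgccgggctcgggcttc
ID3: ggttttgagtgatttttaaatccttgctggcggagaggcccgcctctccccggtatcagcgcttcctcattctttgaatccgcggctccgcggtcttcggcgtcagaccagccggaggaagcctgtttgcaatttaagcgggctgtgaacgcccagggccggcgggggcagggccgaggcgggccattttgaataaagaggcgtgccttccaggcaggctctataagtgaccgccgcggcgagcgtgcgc
All 3 windows were GC-rich, at 66.0% for ID1, 69.2% for ID2 and 62.0% for ID3, against a median of 58.0% over RefSeq promoters. Both strands of 35116 promoters of the same length were searched for each motif. An E-box stood once in the ID2 window and in neither of the others, while 61.8% of promoters held one. The narrower class CACCTG, a subset of the E-box, was in none of the 3 windows and in 17.5% of promoters. CCAAT boxes numbered 1 in ID1, 3 in ID2 and 0 in ID3 (32.0% of promoters held one). Only ID1 of the 3 held TATAAA, as 2 overlapping matches on opposite strands (10.7% of promoters). The GC box GGGCGG matched 2 times in ID1, 2 times in ID2 and 0 times in ID3 (42.6% of promoters). The SMAD motifs GGCGCC (16.4% of promoters) and CAGACA (13.6%) had 0 matches in all 3 windows. The EGR motif GCGNGGGCG matched 1 time, in ID2 (8.41% of promoters), and the CRE-type motif TGACG 1 time, in ID3 (21.2% of promoters). These matches describe letters in a window and say nothing of binding.

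TCF3, the most abundant member per length, lies on chromosome 19 (1609292 to 1652615, minus strand, GRCh38.p14). It had 362, 365 and 379 CPM in shNT libraries 1 to 3 and 333, 338 and 332 CPM in the shPRKCN libraries. The groups did not overlap, although the distance between them was small. The log2 fold change was −0.14 (standard error 0.034, 95% interval −0.21 to −0.073, adjusted p = 0.00029 from edgeR). With 12438 to 14179 counts per library, TCF3 had the deepest coverage of the members, and a difference under 10% of its level could be separated from the spread between libraries.

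TCF4, on chromosome 18 (55222185 to 55635957, minus strand), is the E protein gene most tied to plasmacytoid dendritic cells. Its shNT libraries had 150, 150 and 139 CPM and its shPRKCN libraries 146, 131 and 141 CPM. Library shNT 3 lay under 2 of the 3 shPRKCN libraries, so the groups overlapped. The log2 fold change was −0.071 (standard error 0.040, 95% interval −0.15 to 0.0089, adjusted p = 0.13 from edgeR). The adjusted p moved with single libraries: it was 0.029 without shNT 3, under 0.05, and 0.576 without shPRKCN 2, with log2 fold changes between −0.11 and −0.029.

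TCF12, on chromosome 15 (56918090 to 57291310, plus strand), encodes an E protein shared by B and T cell precursors and muscle. Counts were 1694, 1853 and 1656 in shNT and 1369, 1378 and 1408 in shPRKCN libraries, or 48.0, 50.4 and 44.2 CPM against 36.7, 37.1 and 37.1 CPM. The 3 shPRKCN libraries were nearly alike and all lay below the shNT libraries. TCF12 had the largest difference of the E protein genes, at a log2 difference of −0.36 (standard error 0.054, 95% interval −0.47 to −0.26, adjusted p = 3.0e-08 from edgeR), under the fold limit. Of all genes tested, 20.0% had a lower log2 fold change.

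ID3, an inhibitor that restrains TCF3 in germinal center B cells and is often mutated in Burkitt lymphoma, changed most. It lies on chromosome 1 (23557926 to 23559501, minus strand). Counts were 177, 228 and 233 in shNT and 520, 549 and 501 in shPRKCN libraries, or 5.01, 6.20 and 6.22 CPM against 13.9, 14.8 and 13.2 CPM. Every shPRKCN library held more than 2 times the reads of any shNT library. The log2 fold change was 1.26 (standard error 0.107, 95% interval 1.05 to 1.48, adjusted p = 1.4e-16 from edgeR), and 1.42% of genes tested had a higher one. In RefSeq ID3 overlaps the long noncoding RNA LOC124903876, which was not analysed here. Whether the counting used strand is not given in the sources used here, so reads of such an overlapping gene could not be told apart from ID3.

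ID1, a BMP-responsive inhibitor best known from endothelium and stem cells, lies on chromosome 20 (31605289 to 31606510, plus strand). Counts were 151, 137 and 175 in shNT and 282, 241 and 288 in shPRKCN libraries, or 4.28, 3.73 and 4.67 CPM against 7.55, 6.48 and 7.58 CPM. Library 2 was the lowest of both groups, and the groups did not overlap. The log2 fold change was 0.77 (standard error 0.134, 95% interval 0.50 to 1.04, adjusted p = 1.3e-06 from edgeR). The lower end of that interval lies under the fold limit of 0.58, and ID1 had the fewest counts and the widest interval of the 6 members.

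ID2, an inhibitor required for innate lymphoid cells and for many T cell fates, was the main ID transcript in these cells. It lies on chromosome 2 (8682056 to 8684461, plus strand). Counts were 2064, 2106 and 2366 in shNT and 1549, 1637 and 1564 in shPRKCN libraries, or 58.4, 57.3 and 63.2 CPM against 41.5, 44.0 and 41.2 CPM. Every shPRKCN library was under the lowest shNT library. The log2 fold change was −0.50 (standard error 0.051, 95% interval −0.60 to −0.40, adjusted p = 2.6e-13 from edgeR), under the fold limit but with an interval that reaches it, and 14.7% of genes had a lower one. For each member other than TCF4, a 2-sided exact permutation test of CPM gave p = 0.1, the smallest that 3 libraries against 3 allow, and for TCF4 it gave p = 0.3.

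**Figure D2:**
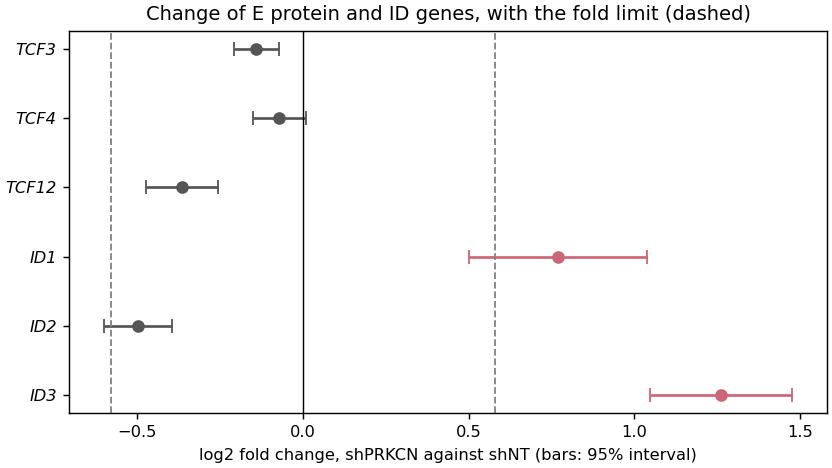
Log2 fold change of shPRKCN against shNT (horizontal axis) for each of the 6 genes, with 95% intervals from the edgeR fit as bars and the fold limit of 0.58 in both directions as dashed lines. ID3 lies wholly beyond the limit at 1.26, the ID1 interval spans it, the ID2 interval touches it on the lower side, and TCF4 spans 0.

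Per length, the order of the members also changed. In shNT libraries the FPKM were 54.2 ± 1.31 for TCF3, 45.6 ± 2.36 for ID2, 13.6 ± 0.595 for TCF4, 6.07 ± 0.732 for ID3, 4.85 ± 0.322 for TCF12 and 3.43 ± 0.382 for ID1 (SD, n = 3). In shPRKCN libraries they were 49.9 ± 0.047 for TCF3, 32.7 ± 0.857 for ID2, 14.8 ± 0.690 for ID3, 13.1 ± 0.814 for TCF4, 5.94 ± 0.576 for ID1 and 3.82 ± 0.038 for TCF12. ID3 thus moved from below TCF4 to above it, and ID1 from below TCF12 to above it. No neighbours in either order overlapped between their libraries, though ID3 and TCF4 in shPRKCN and ID3 and TCF12 in shNT came close. Among all genes tested, TCF3 stood above 93.4%, ID2 above 92.0% and ID1 above 43.4% in mean shNT FPKM. The lengths behind the deposited FPKM are 1 value per gene, from 950 bases for ID3 to 10701 for TCF4, so a change in isoform would alter these levels.

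The makeup of the ID transcript pool changed, while the change in its size depended on the unit. The FPKM of ID1, ID2 and ID3 added up to 53.3, 53.4 and 58.6 in the shNT and 53.4, 54.4 and 52.5 in the shPRKCN libraries, and the groups overlapped. ID2 made up 82.8% ± 0.814 (SD, n = 3) of that pool in shNT and 61.2% ± 0.702 in shPRKCN libraries. The share of ID3 went from 11.0% ± 1.18 to 27.7% ± 0.798 and that of ID1 from 6.22% ± 0.469 to 11.1% ± 1.25. For every ID share, the libraries of the groups lay apart. Summed as CPM, which do not scale up the short ID3, the pool was lower in shPRKCN libraries: 67.7, 67.2 and 74.1 CPM in shNT against 63.0, 65.3 and 62.0 CPM, with no overlap. On that scale the knockdown pool was 91.0% of the shNT mean, against 97.0% in FPKM, and ID2 made up 85.6% ± 0.594 of it in shNT and 66.6% ± 0.790 in shPRKCN libraries. The ratio of ID2 to ID3 FPKM was 7.57 ± 0.895 in shNT and 2.21 ± 0.060 in shPRKCN libraries, and that of ID2 to ID1 was 13.3 ± 0.968 and 5.56 ± 0.723.

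The E protein pool summed to 72.7 ± 0.651 FPKM (SD, n = 3) in shNT and 66.8 ± 0.881 FPKM in shPRKCN libraries, with no overlap. TCF3 took 74.6% ± 1.35 of it in shNT and 74.7% ± 0.921 in shPRKCN libraries, which overlapped, and the TCF4 shares, 18.7% and 19.6%, overlapped as well. The share of TCF12 was lower in every shPRKCN library, at 5.71% ± 0.062 against 6.67% ± 0.456. The ratio of summed ID to summed E protein FPKM was 0.758 ± 0.038 in shNT and 0.800 ± 0.024 in shPRKCN libraries. These overlapped, library shNT 3 (0.801) lying above 2 shPRKCN libraries (0.791 and 0.782). Ratios and shares were given no test.

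**Figure D3:**
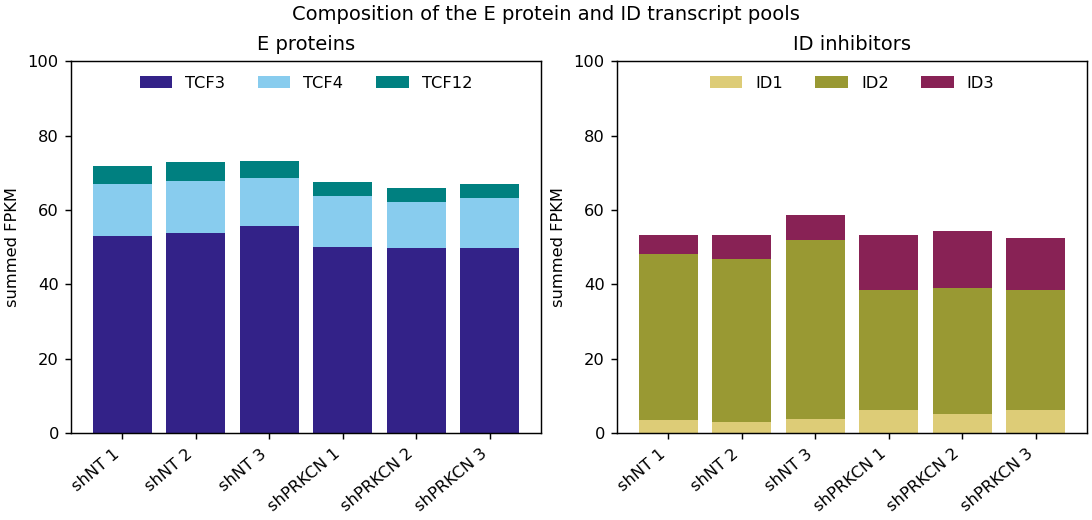
Summed FPKM (vertical axis) of the E protein genes (left) and ID genes (right) in each of the 6 libraries, stacked by gene. The ID bars overlap in height between the groups in FPKM, but the ID3 segment is larger and the ID2 segment smaller in shPRKCN, while TCF3 fills most of each E protein bar.

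Ratios between members within a library do not depend on scaling between libraries. The log2 ratio of ID2 to ID3 was lower by 1.77 in shPRKCN libraries, the widest shift of the 15 possible pairs. ID1 and ID3 moved the same way but not equally, with their log2 ratio shifted by −0.50 and no overlap between the groups. The log2 ratios of TCF12 to ID2 (shift 0.14) and of TCF3 to TCF4 (shift −0.068) overlapped between the groups. Such overlap does not show that the genes of a pair moved together. The 13 other pairs did not overlap between the groups. The pairs share genes, and the share of such pairs over all genes was not computed. Single genes lay wholly above in 29.0% and wholly below in 29.8% of those tested, so the count of pairs is not a result about the members.

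The genes next to the members on the chromosome were looked at to see whether a wider region moved. Of the 12 nearest tested protein-coding neighbours, 1 on each side of each member, 0 were called higher and 2 lower. Of all genes tested, 6.15% were called higher and 10.6% lower, and so few neighbours cannot show whether a wider region moved. ID3 stands 26.7 kb from E2F2 (log2 fold change −0.52) and 132 kb from RPL11 (−0.12), so neither neighbour was higher. ID1 lies 35.7 kb from HM13 (−0.17) and 57.9 kb from BCL2L1 (0.15). For ID2, KIDINS220 at 36.6 kb had a log2 fold change of 0.13, and RNF144A at 1610 kb was called lower (−0.66). The other neighbour called lower was ATP8B3 (−1.45), 129 kb from TCF3, at 1.20 CPM in shNT libraries. These neighbours were picked by position after the data were seen.

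Genes with the profile most like that of each called member were ranked by the root mean square distance of log2 CPM over the 6 libraries, after centering on the shNT mean, among the 11659 tested genes averaging 50 or more counts. For ID3 the nearest were GRAP (distance 0.094), ZNF362 (0.095) and MYO7A (0.097), with log2 fold changes of 1.33, 1.30 and 1.25. For ID1 they were LOC105374942 (0.054), P2RY1 (0.066) and MRM1 (0.070), with log2 fold changes of 0.78, 0.82 and 0.78. The distance depends largely on the fold change, so these similar values come from the ranking itself and do not show shared regulation.

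The partners of the members were described from gene lists written from general knowledge, and their counts stand beside a median log2 fold change of 0.0012 over all genes tested. Counts of called genes are to be read against the 6.15% of all genes called higher and 10.6% called lower, and counts on the adjusted p alone against 26.5% higher and 27.8% lower. Genes named under the fold limit were chosen after their values were seen. Of 46 tissue-restricted partners that dimerize with E proteins, 22 were in the table and 12 were tested, with a median log2 fold change of 0.064. LYL1, a partner known from T cell leukemia, was the one called, and higher: counts of 89 to 110 in shNT stood against 260 to 283 in shPRKCN libraries, and its log2 fold change was 1.39 (standard error 0.145; edgeR adjusted p = 4.8e-13). BHLHA15, a factor of secretory cells such as plasma cells, had 24.5 ± 0.750 CPM in shNT and 19.1 ± 1.10 CPM in shPRKCN libraries (SD, n = 3) and a log2 fold change of −0.36, under the limit. TWIST1 (−0.56) and MESP1 (−0.58) also had adjusted p under 0.05 without being called, and the 8 remaining tested partners did not pass.

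Among 13 cofactors of E proteins, 9 were tested, with a median of 0.18, and 6 were higher and 2 lower on the adjusted p alone, beside 26.5% and 27.8% of all genes. KAT2B, an acetyltransferase, was the one called: it fell from 87.0 ± 0.933 to 31.0 ± 1.16 CPM (SD, n = 3), and its log2 fold change was −1.49 (standard error 0.049; edgeR adjusted p = 1.6e-37). The ETO family corepressors CBFA2T3 (0.31) and CBFA2T2 (0.22), the acetyltransferases EP300 (0.18) and CREBBP (0.15), the adaptor LDB1 (0.54) and the general factor TAF4 (0.24) were higher under the limit. LMO4 (−0.35), which bridges to LDB1, was lower under it. Of the zinc finger repressors that bind E-boxes, 3 of 5 were tested and 0 passed, at a median of 0.063: ZEB1 (0.13), SNAI1 (−0.31) and SNAI3 (0.063).

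Upstream of the ID genes lies the BMP and TGF-β pathway. Of 11 receptor genes tested, 6 were lower and 1 higher on the adjusted p alone, beside 27.8% and 26.5% of all genes, with a median of −0.30. TGFBR3, a co-receptor, was the one called, at 95 to 114 shNT counts against 54 to 78 after knockdown, and its log2 fold change was −0.79 (standard error 0.217, edgeR adjusted p = 0.0013). The BMP type II receptor BMPR2 had a log2 fold change of −0.47, and TGFBR2 one of −0.30. Of 4 ligands tested, TGFB1 (0.28) was higher under the limit and BMP6, the most abundant, had 71.6 ± 2.16 and 69.7 ± 1.60 CPM (SD, n = 3), with a median of 0.28 for the list. Among the 6 SMADs (median −0.020), which carry the signal to the nucleus, SMAD5 (−0.42) was lower and SMAD3 (0.13) higher under the limit, and SMAD1 had a log2 fold change of 0.13 (adjusted p = 0.067 from edgeR). Of 6 feedback inhibitors tested (median 0.033), SMAD7, itself a target of SMAD signaling, fell from 115 ± 4.51 to 62.8 ± 2.15 CPM (SD, n = 3; log2 fold change −0.87, standard error 0.044, adjusted p = 1.1e-27 from edgeR). The repressors SKI (0.57) and SKIL (−0.41) moved in opposite directions under the limit.

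The EGR factors, known to induce ID3 after antigen receptor signals in lymphocytes, were lower in the shPRKCN libraries. EGR1 was at 72 to 127 counts in the controls against 3 to 33 after knockdown, and its log2 fold change was −2.19 (standard error 0.332, edgeR adjusted p = 4.7e-08). EGR2 was also called lower (−1.75), on 18 to 28 against 4 to 11 counts, and EGR3 was too low to test. The median of the 2 tested was −1.97. Genes for the turnover of ID and E proteins were lower in 5 of 6 cases on the adjusted p alone, beside 27.8% of all genes, at a median of −0.22. CDC20, an activator of the anaphase-promoting complex, fell from 99.2 ± 5.33 to 51.7 ± 2.92 CPM (SD, n = 3; log2 fold change −0.94, adjusted p = 1.4e-27 from edgeR), while USP1, a deubiquitinase of ID proteins, had a log2 fold change of −0.32 and SKP2 one of −0.29.

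**Figure D4:**
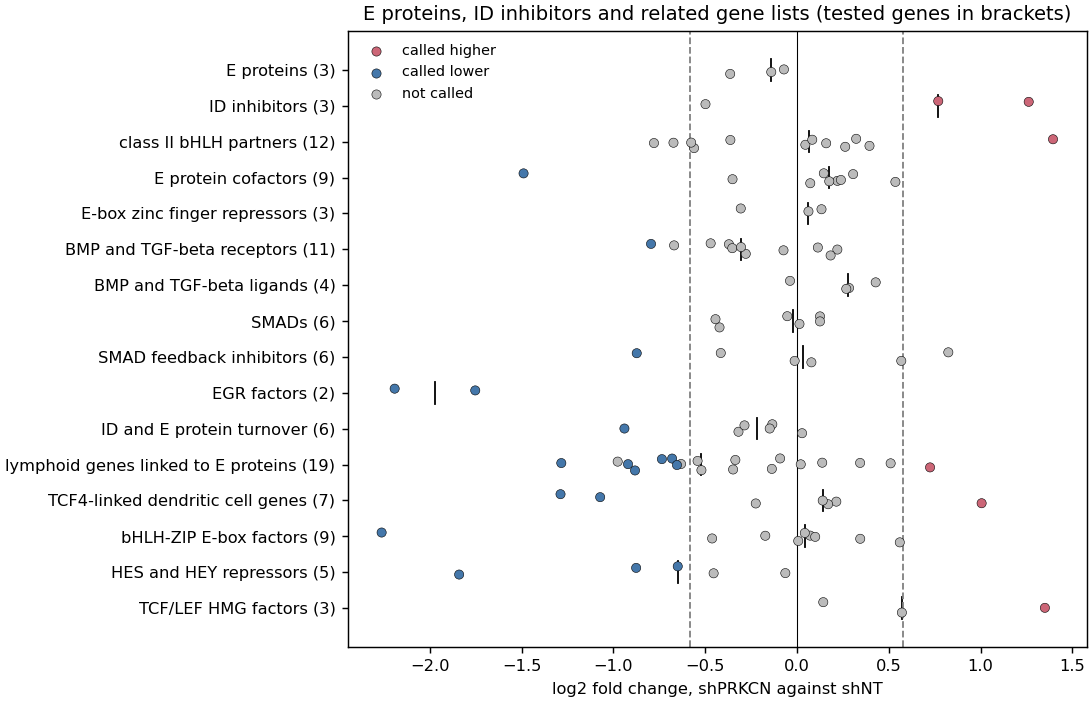
Log2 fold change (horizontal axis) of the tested genes in the member groups and in each related list, 1 point per gene, colored by whether it was called, with the list median as a black bar and the fold limit as dashed lines. The 2 called ID genes stand at the right, while both tested EGR factors and 3 of 5 HES and HEY genes stand beyond the limit at the left.

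Lymphoid genes linked to E proteins, 19 of 30 of them tested, had a median of −0.52, with 1 called higher and 6 lower. The surface receptor part CD79B rose from 21.7 ± 1.31 to 35.9 ± 1.85 CPM (SD, n = 3), at a log2 fold change of 0.72. XBP1, the secretory program factor of plasma cells, fell by 1.28 on the log2 scale, the cell cycle inhibitor CDKN1A by 0.92, the repressor GFI1 by 0.88 and the chemokine receptor CXCR4 by 0.74, and CCND3 and VPREB1 were the other genes called lower. VPREB1 rests on 34 to 73 counts against 34 to 41, and its groups overlapped. XBP1 is also a plasma cell marker, whose list sum was lower in the shPRKCN libraries as given above. Of the plasmacytoid dendritic cell genes tied to TCF4, 7 of 11 were tested (median 0.14): RUNX2 fell from 142 ± 1.35 to 58.1 ± 1.98 CPM (SD, n = 3; log2 fold change −1.29), and TLR7 (lower) and TLR9 (higher) were called on at most 49 counts in any library.

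Other helix-loop-helix families were set beside the E proteins. Of 9 leucine zipper factors that bind E-boxes (median 0.043), TFEC was called lower (−2.26) on 46 to 91 against 4 to 20 counts, and USF2 (0.56), TFAP4 (0.34) and MLX (0.099) were higher and MITF (−0.46) lower under the limit. HES and HEY genes, a family that includes repressors downstream of Notch, had a median of −0.65, with 3 of 5 tested called lower. HES6 fell from 57.4 ± 2.56 to 16.0 ± 0.695 CPM (SD, n = 3; log2 fold change −1.84, standard error 0.059, adjusted p = 4.0e-38 from edgeR), and HEY2 (−0.88) and HES1 (−0.65) were the others. The HMG-box factors of Wnt signaling share the TCF name but no helix-loop-helix, and TCF4 is an older name of TCF7L2. TCF7 was called higher (1.35), on 33 to 51 against 94 to 134 counts, LEF1 had a log2 fold change of 0.57, and TCF7L2 had at most 41 counts in any library. With 4889 to 5526 counts, the TCF4 row was therefore not that of TCF7L2.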

How the data were processed

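RNA-seq counts were analyzed for 3 shNT and 3 shPRKCN libraries of MM.1S cells, grouped by the treatment label. The authors deposited raw counts per gene and FPKM values of the same genes. The deposited FPKM follow from the counts, the library total and 1 length per gene. The submitters' processing notes list FastQC, HISAT2 and StringTie with GRCh38.p14, while versions, counting settings, annotation and strandedness are not given in the sources used here.

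Counts were scaled with TMM and fitted over the whole table with edgeR 4.0.16 (quasi-likelihood, R 4.3.3) after filterByExpr, which kept 13971 of 21850 genes. Adjusted p-values are Benjamini-Hochberg over all genes tested, and genes were called at 0.05 and a log2 fold change beyond 0.58. FPKM were used for levels, sums and ratios. Total counts of 35625564 to 37730003 per library set the precision, and low counts limit the small ID1 and EGR values. Libraries of a group differed by a chi-square per degree of freedom of 3.38 to 4.80, so none repeated another. The edgeR fit was tested on simulated counts with the same dispersion for all genes.

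The text names all members, the called genes of each list with a mean of at least 50 counts (at most 4 per direction), PRKD3 and the nearest 3 profiles of each called member. Other names were chosen after values were seen. The members and lists were chosen with earlier results of these data known. Alternatives were DESeq2 1.42.0, other scalings and filters, a block for the replicate number, dropping each library in turn, limma 3.58.1 on log2(FPKM + 1) or log2(FPKM + 0.1), and no fold limit. Promoters came from RefSeq, with Python 3.11.15 for the search and scipy 1.17.1 for exact tests.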

Additional observations from a re-analysis of the deposited data

How the results depend on the processing

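Over 16 alternatives per member, 0 member results reversed, and in 93 the gene stayed called or not called as before. The 3 others came from leaving out the fold limit, by which TCF3 (−0.14), TCF12 (−0.36) and ID2 (−0.50) passed, so that 3 members were lower and 3700 genes were higher and 3877 lower. With limma on log2(FPKM + 1), 315 genes were called higher and 648 lower, and 310 and 635 with an FPKM of at least 1 in 3 libraries. With limma on log2(FPKM + 0.1), 796 genes were called higher and 1262 lower. The cause of these differences was not tested. TCF4, never called, had an adjusted p under 0.05 in 1 of the 16 alternatives, without shNT 3 (0.029). Log2 fold changes ran from 0.65 to 0.85 for ID1, 1.16 to 1.32 for ID3 and −0.53 to −0.45 for ID2 over the alternatives. Summed as CPM in place of FPKM, the ratio of ID to E protein transcripts was 0.124 in both groups. In CPM, a sum added after seeing the data, the ID pool of shPRKCN was 91.0% of shNT (97.0% in FPKM) and the E protein pool 90.8% (91.9% in FPKM). With the replicate block, ID1 was at 0.77, ID3 at 1.27 and ID2 at −0.50, with 854 genes called higher and 1463 lower. Same-numbered libraries did not deviate together (correlations −0.041, −0.017 and 0.0018). These values gave no sign of pairing by number, but with so few libraries they cannot exclude it. With 3 libraries per group, no sample was screened as an outlier.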
